A study of Mus musculus with 12 samples.

Results

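The Myc, Max and Mxd network was described here through 10 genes: the activators Myc, Mycn and Mycl, the shared partners Max and Mlx, and the antagonists Mxd1, Mxd3, Mxd4, Mxi1 and Mnt. The members were taken by gene symbol and are 10 of the 55216 genes counted. RNA-seq libraries were made from Myc-CaP, an established prostate cancer line of male FVB/NJ mice, grown for 48 h without drug (Ctrl), with oxaliplatin at 2 μM (Oxali, a platinum compound that crosslinks DNA), with interferon γ (IFNγ) at 200 or 2000 pg (IFN200, IFN2000), or with Oxali plus either dose of IFNγ (Combo200, Combo2000). The labels give the IFNγ dose in pg with no volume, and the study's figure legend states its IFNγ doses for RNA-seq of these cells per mL. The 12 libraries form 6 groups of 2, taken from the sample titles, and nothing read here says that the 2 libraries of a group came from separate cultures, so p-values measure the spread between these libraries.

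For the single treatments, a second label names another agent than the title does. Libraries titled IFN200 carry the agent Oxali, those titled IFN2000 carry IFNγ at 200 pg, and those titled Oxali carry IFNγ at 2000 pg. Titles were used throughout. The mean log2 ratio to Ctrl of 10 p53 target genes, which DNA damage is known to raise, was 0.35 and 0.38 in the libraries titled Oxali, 0.34 to 0.40 in the combinations, -0.01 and 0.02 for IFN200, and -0.08 and 0.01 for IFN2000. The list did not move as one with Oxali, since 5 of the 10 genes were higher, such as Cdkn1a (1.02) and Mdm2 (0.64), and 3 were lower, Bax (-0.88), Bbc3 (-0.55) and Ccng1 (-0.31). By the same test, 34.8% of all genes were higher with Oxali and 32.8% lower. For 9 IFNγ target genes, by title, the mean log2 ratio to Ctrl stood at 1.17 and 1.23 for Oxali, 0.76 and 0.86 for IFN200, 3.14 and 3.16 for IFN2000, 4.41 and 4.44 for Combo200, and 5.90 for both Combo2000 libraries. The titles and the second label were not reconciled beyond these values.

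The network works by exchange of partners. MYC proteins bind DNA only as dimers with MAX, at a short element called the E-box, and there they recruit coactivators and raise transcription of genes for ribosome production, metabolism and cell cycle entry. MXD proteins, MXI1 and MNT also pair with MAX at E-boxes, but bring the SIN3 and histone deacetylase corepressor, and so compete with MYC. MLX, a relative of MAX, pairs with some MXD proteins, with MNT, and with the Mondo proteins MLXIP and MLXIPL, which respond to glucose. In prostate cancer MYC is a frequent driver, and Myc-CaP cells come from a mouse tumor that carried a MYC transgene under a prostate (probasin) promoter that androgens activate. Reads of that transgene that were assigned to mouse Myc cannot be told from those of the endogenous gene, and bulk RNA cannot tell less RNA per cell from fewer cells of a kind.

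E-boxes also stand in front of some of the members themselves. A RefSeq table (GRCm38.p6) held promoters for 9 of the 10 members, with 11 start sites in all. Myc had no entry, so its promoter was not searched, and Mxi1 had several start sites. In the 250 bases before the start site, the letters CACGTG, which read the same on both strands, were present in 3 of the 11 windows, those of Mxd4, Mnt and Mlx, and in 6.02% of all 32851 windows of that length. The 3 windows with an E-box are shown because these 3 members, each with the network's own site, did not all respond alike. With Oxali the log2 change was 0.92 for Mxd4 and 0.22 for Mnt, but -0.46 for Mlx. Of the tested members with no E-box in their windows, Mxd1 rose (1.15), Mxi1 fell (-0.20), and Max and Mxd3 were not called. The rise of Mnt and the fall of Mxi1 were not called in every setting. Each stretch shown runs 5′ to 3′ from 250 to 21 bases before the start site, with the E-box in capitals.
Mxd4: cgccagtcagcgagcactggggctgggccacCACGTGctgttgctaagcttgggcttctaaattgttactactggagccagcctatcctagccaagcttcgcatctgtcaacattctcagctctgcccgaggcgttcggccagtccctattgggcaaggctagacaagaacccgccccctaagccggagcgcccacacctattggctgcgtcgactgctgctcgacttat
Mnt: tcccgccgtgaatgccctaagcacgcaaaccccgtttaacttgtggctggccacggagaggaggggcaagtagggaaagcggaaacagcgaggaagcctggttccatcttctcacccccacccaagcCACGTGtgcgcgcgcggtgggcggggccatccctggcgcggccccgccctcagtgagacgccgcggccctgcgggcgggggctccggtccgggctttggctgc
Mlx: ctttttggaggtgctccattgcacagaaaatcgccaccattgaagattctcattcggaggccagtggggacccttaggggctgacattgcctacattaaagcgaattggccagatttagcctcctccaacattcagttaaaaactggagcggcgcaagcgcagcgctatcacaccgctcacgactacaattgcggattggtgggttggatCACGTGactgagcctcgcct
These stretches of 230 bases lie at chr5:34187731-34187960, minus strand, for Mxd4, at chr11:74830674-74830903, plus strand, for Mnt, and at chr11:101087040-101087269, plus strand, for Mlx. The E-box begins 219 bases before the start site in Mxd4, 123 in Mnt and 40 in Mlx. The match of letters is a description and does not show binding.

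Library totals ran from 18749975 to 25931516 counts, and a count of 0 allows up to 0.111 to 0.167 CPM (counts divided by library size and set on 1 scale), counting error only. Of 13177 genes that passed the filter on low counts, 8 were members, and Mycn and Mycl were not among them. The labelled cell type was checked against luminal prostate markers. Krt8 was at 18.6 to 23.9 CPM, whereas Epcam had no count in any library and Krt18 and Cdh1 stayed at or under 0.276 CPM, so 3 of these 4 epithelial genes were absent or near the floor. The mouse probasin gene (Pbsn) had no count either, which does not measure the activity of the transgene's promoter. A pair of libraries held reads of other tissues. IFN2000 replicate 2 had 5.95 CPM summed over 6 T cell markers against 0.446 CPM in its partner, and IFN200 replicate 1 had 7.16 CPM over 6 heart muscle markers against 1.10 CPM. Oxali-containing libraries had 3.02 to 5.94 CPM over the heart list, most of it Tnnt2. The part of these reads in the results was not tested beyond leaving the libraries out.

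Myc was the only activator expressed. Its mRNA was high in every library and changed little under any treatment, while Max, the obligate partner, differed from Ctrl only by a small rise with IFN2000 in the TMM-scaled fit. Myc (chr15:61985391-61990374, plus strand, GRCm38) stood at 126 and 132 CPM for Ctrl, 129 and 132 for IFN200, 138 and 136 for IFN2000, 150 and 145 for Oxali, 140 and 146 for Combo200, and 142 and 152 for Combo2000. All 6 Oxali-containing libraries were above all 6 libraries without Oxali, though by a narrow margin. Against Ctrl, Myc rose by 0.19 ± 0.04 on the log2 scale with Oxali (SE; 1.14-fold; edgeR adjusted p = 0.000771), by 0.15 with Combo200 and by 0.18 with Combo2000. These 3 small rises depend on the handling of gene length and GC content. A correction for both that also moved the median of all genes by more than 0.1 gave Myc 0.05, -0.03 and -0.01, none called, whereas the same correction with the median held gave 0.17, 0.11 and 0.15, all called. The rise with Combo200 also lost its call without Ctrl replicate 1 (adjusted p = 0.124) or Combo200 replicate 3 (0.104). In IFN200 and IFN2000, Myc differed from Ctrl by 0.01 ± 0.04 and 0.09 ± 0.04 and did not pass the test.

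Mycl, the lung and neuroendocrine paralog, had no count in any library. Mycn, which drives neuroblastoma and neuroendocrine prostate tumors, had 1 count in IFN200 replicate 1 and 1 in IFN2000 replicate 2, the same libraries that held the reads of other tissues, and 0 elsewhere. Both genes are thus at or under the floor, with no fold to give. Pvt1, the long noncoding RNA gene next to Myc, was not called in any comparison with Ctrl and differed with Oxali by 0.02 ± 0.11.

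Max (chr12:76937269-76962201, minus strand) was at 97.6 and 101 CPM for Ctrl, 99.0 and 99.4 for IFN200, 108 and 108 for IFN2000, 97.4 and 97.8 for Oxali, 92.7 and 97.1 for Combo200, and 96.5 and 97.4 for Combo2000. The IFN2000 libraries were the highest pair. Max rose there by 0.12 ± 0.04 (adjusted p = 0.0415), a call lost when either Ctrl library or IFN2000 replicate 2 was left out (adjusted p = 0.0594 to 0.226), with the corrections for length and GC content and with several other settings. With Oxali it differed from Ctrl by -0.02 ± 0.04, which did not pass the test, although the length and GC correction that moves the median called it lower (-0.12, adjusted p = 0.0110).

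Mlx (chr11:101087277-101092207, plus strand), the partner of the glucose-sensing branch, fell whenever Oxali was present. It was at 42.2 and 44.9 CPM for Ctrl, 39.4 and 40.5 for IFN200, 47.8 and 45.3 for IFN2000, 31.7 and 31.7 for Oxali, 33.1 and 34.2 for Combo200, and 32.3 and 35.2 for Combo2000. No Oxali-containing library reached the lowest library without Oxali. Mlx fell by 0.46 ± 0.06 on the log2 scale with Oxali (adjusted p = 8.72e-07), and the log2 change was -0.37 in both combinations. Exons of Psmc3ip on the other strand cover 385 bases (19.3%) of Mlx exons, and whether the counting used strand was not given in the sources used here. Psmc3ip itself differed by -0.06 ± 0.08 with Oxali and was not called.

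**Figure D1:**
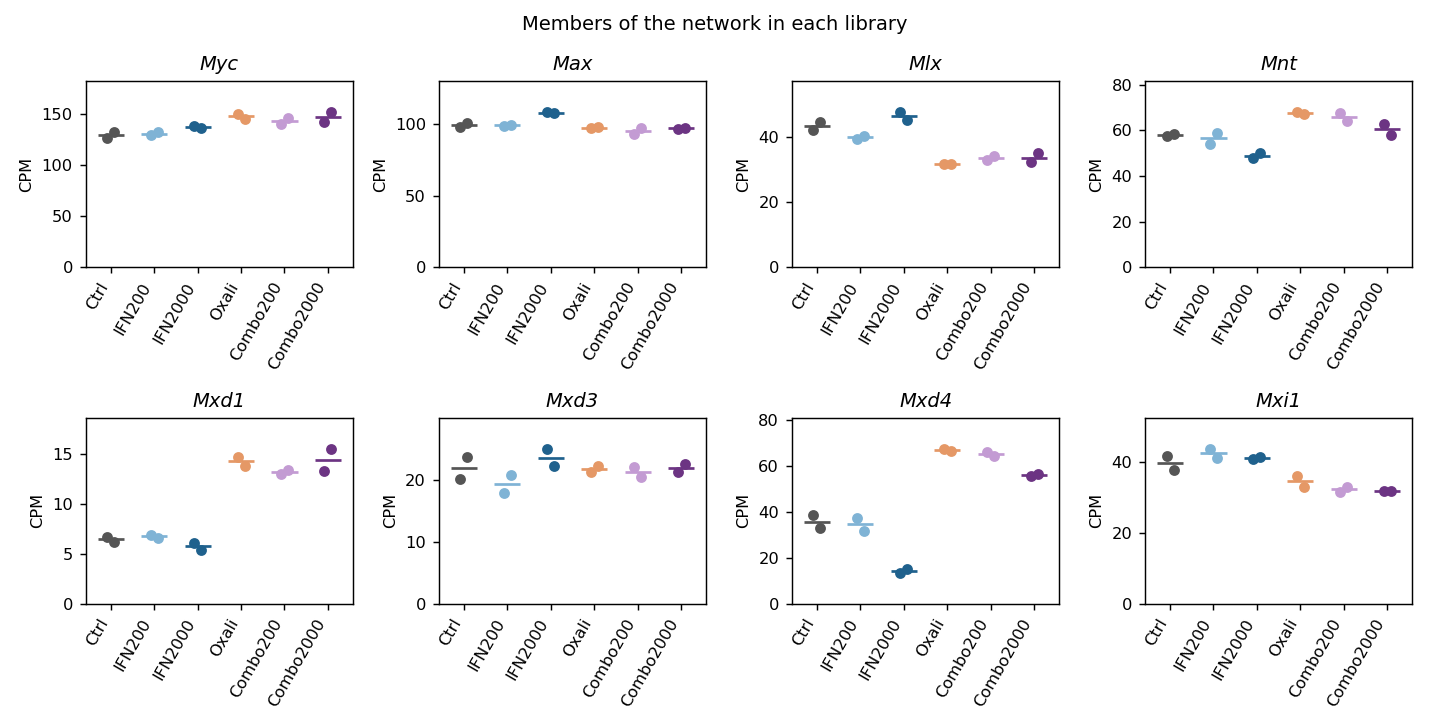
Level of each of the 8 expressed members in CPM (linear axis from 0) in the 2 libraries of each group. Points are libraries and bars are group means. Mxd1 stands at 13.0 CPM or above in all 6 Oxali-containing libraries and at 6.86 or below in the others, Mxd4 drops to 13.49 and 15.04 CPM in IFN2000, and Myc and Max stay nearly level.

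The antagonists did not move together. Oxali raised Mxd1 and Mxd4, by far more than Myc, and changed Mnt and Mxi1 by about as much as Myc, in opposite directions. Mxd3 did not pass the test with Oxali, and IFN2000 lowered Mxd4 to 0.40 of its Ctrl level. Mxd1 (chr6:86647042-86669161, minus strand), the MAD1 protein that accumulates when cells leave the cycle and differentiate, was at 6.68 and 6.23 CPM for Ctrl, 6.86 and 6.63 for IFN200, 6.12 and 5.36 for IFN2000, 14.7 and 13.8 for Oxali, 13.0 and 13.4 for Combo200, and 13.3 and 15.5 for Combo2000. The libraries with Oxali and those without formed separate ranges. Mxd1 rose 2.21-fold with Oxali (log2 1.15 ± 0.11, adjusted p = 1.55e-08), 2.05-fold with Combo200 and 2.23-fold with Combo2000.

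Mxd4 (chr5:34173883-34187720, minus strand), the MAD4 protein, also linked with exit from the cycle, had the widest range of the members. It was at 38.6 and 32.9 CPM for Ctrl, 37.6 and 32.0 for IFN200, 13.49 and 15.04 for IFN2000, 67.6 and 66.9 for Oxali, 66.1 and 64.6 for Combo200, and 55.8 and 56.5 for Combo2000. IFN2000 was the lowest pair, Oxali and Combo200 the highest, and the Combo2000 pair lay just under them. Mxd4 rose 1.89-fold with Oxali (log2 0.92 ± 0.07, adjusted p = 4.94e-10), 1.83-fold with Combo200 and 1.57-fold with Combo2000. With IFN2000 the log2 change was -1.32 ± 0.09 (0.40-fold; adjusted p = 2.98e-09), and without IFN2000 replicate 2, the library with T cell reads, it was -1.24. IFN2000 libraries also had relatively fewer reads from long genes, with a Spearman correlation over 13024 genes between the log2 ratio to Ctrl and exon length of -0.304 and -0.163, against -0.014 to 0.145 elsewhere. With length and GC content corrected and the median held, the change of Mxd4 was -1.26. Gm42846, an antisense gene that covers 514 bases (6.06%) of Mxd4 exons, had no count in any library.

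Mnt (chr11:74830920-74845725, plus strand), the broadly expressed antagonist, was higher with Oxali and lower with IFN2000, as Mxd4 was, by smaller amounts. It was at 57.7 and 58.4 CPM for Ctrl, 53.9 and 59.0 for IFN200, 48.0 and 49.9 for IFN2000, 68.0 and 67.2 for Oxali, 67.6 and 63.9 for Combo200, and 62.9 and 58.0 for Combo2000. Oxali and IFN2000 both lay outside the Ctrl range, on opposite sides. Mnt rose by 0.22 ± 0.05 with Oxali (adjusted p = 0.00124), but with length and GC content corrected the rise was no longer called, at 0.03 with the median held and -0.09 without. The rise with Combo200 (0.18 ± 0.05, adjusted p = 0.00560) was 0.02 with the median held, and its call was also lost without Ctrl replicate 1 (0.0592) or Combo200 replicate 2 (0.0708). With IFN2000 the log2 change was -0.25 ± 0.06 (adjusted p = 0.00486), and the correction with the median held left it at -0.23. That call was lost without either Ctrl library or without IFN2000 replicate 2, with adjusted p = 0.0545 to 0.0625.

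Mxi1 (chr19:53310518-53375810, plus strand), the MXD2 protein, went the other way. It was at 41.8 and 38.0 CPM for Ctrl, 43.8 and 41.3 for IFN200, 41.0 and 41.4 for IFN2000, 36.1 and 33.1 for Oxali, 31.5 and 33.1 for Combo200, and 32.0 and 31.9 for Combo2000. Each Oxali-containing library was below each library without Oxali. The log2 change was -0.20 ± 0.06 with Oxali (adjusted p = 0.00669), -0.30 with Combo200 and -0.32 with Combo2000. The call with Oxali alone was lost with DESeq2 (adjusted p = 0.0541) and without Ctrl replicate 1 or Oxali replicate 2 (0.107 and 0.0898), and both combination calls held in each setting run.

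Mxd3 (chr13:55325168-55329823, minus strand), the MAD3 protein, which unlike its relatives is expressed in dividing cells, ran from 17.9 to 24.97 CPM over the 12 libraries, and each treated group overlapped Ctrl. It differed from Ctrl by -0.01 ± 0.09 with Oxali and by 0.11 ± 0.09 with IFN2000, and passed the test against Ctrl in no group. The length and GC correction that moves the median called it lower with Oxali (-0.19, adjusted p = 0.0478). Prelid1, whose exons cover 105 bases (4.43%) of Mxd3 on the other strand, fell by 0.91 with Oxali.

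**Figure D2:**
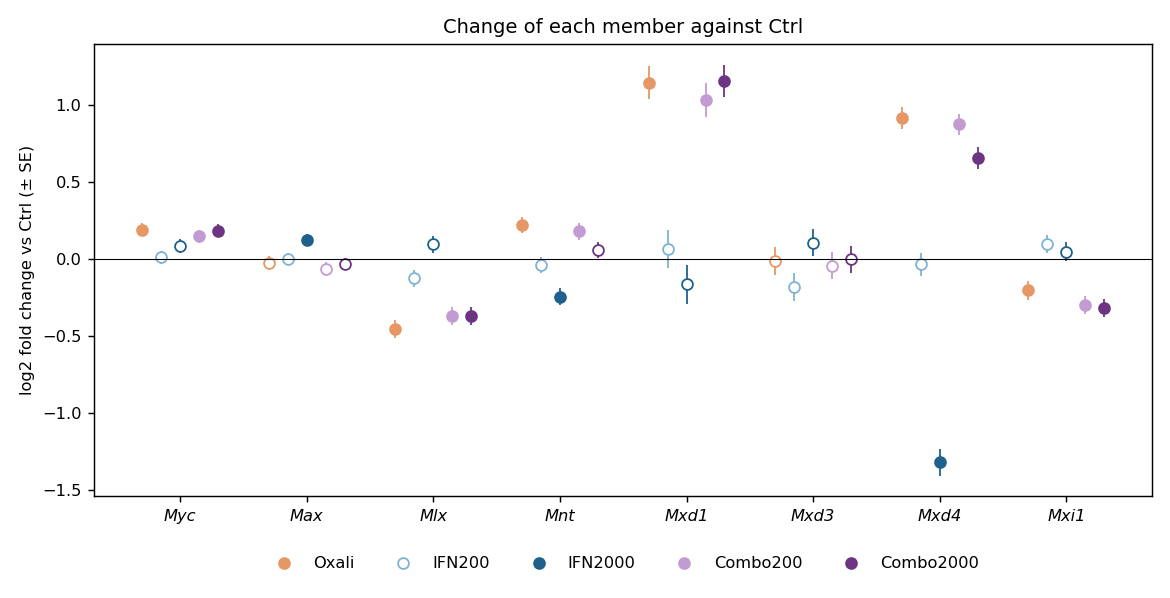
Log2 fold change of each expressed member against Ctrl (vertical axis) with its SE, for the 5 treatments. Filled points passed the edgeR test at an adjusted p under 0.05 and open points did not. Oxali and both combinations lie on the same side of 0 for each member called with Oxali, Mxd4 is lower with Combo2000 than with Oxali, and IFN2000 is apart at Mxd4, at -1.32.

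Oxali called most members, as it did most genes. With Oxali, 4 of 8 members were higher (Myc, Mxd1, Mxd4, Mnt) and 2 lower (Mxi1, Mlx), where 34.8% of all genes were called higher and 32.8% lower. With Combo200 the same 4 were higher and the same 2 lower, beside 35.6% and 33.1% of all genes. With Combo2000, Myc, Mxd1 and Mxd4 were higher and Mxi1 and Mlx lower, beside 35.7% and 33.5%. These 5 comparisons share the Ctrl libraries. The balance of directions depends on the scale. The length and GC correction that moves the median called 2 members higher with Oxali (Mxd1, Mxd4) and 4 lower (Max, Mxd3, Mxi1, Mlx), and all genes went from 4590 higher and 4321 lower to 3633 and 5568. In the combinations it called the same 2 members higher and 5 lower, Mnt being the added one, beside 3669 and 5713 genes with Combo200 and 3607 and 5873 with Combo2000. With the median held, the members called with Oxali were those of the TMM-scaled fit without Mnt. IFN200 called no member, beside 0.114% of genes higher and 0% lower, and at an unadjusted p under 0.05 Mlx passed (-0.13 ± 0.06). DESeq2 called no member there either. IFN2000 called Max higher and Mxd4 and Mnt lower, beside 8.39% and 8.47% of genes.

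Adding IFNγ to Oxali called no member but Mxd4 in the TMM-scaled fit. Mnt was lower with Combo2000 than with Oxali (-0.16 ± 0.05) at an unadjusted edgeR p of 0.00563, with an adjusted p of 0.0978. Combo200 against Oxali called 0 of the 8 members by edgeR and by DESeq2, with 0 at an unadjusted p under 0.05, where 1.83% of all genes were called. Combo2000 against Oxali called Mxd4 alone (-0.26 ± 0.06, adjusted p = 0.0160), beside 4.36% of genes, a call lost with DESeq2 (0.108) and without any 1 of the 4 libraries (0.125 to 0.158). Combo2000 against Combo200 called no member by edgeR or DESeq2, beside 1.37% of genes, with Mxd4 (-0.22) and Mnt (-0.12) at an unadjusted p of 0.00201 and 0.0298.

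Adding Oxali to IFNγ called most members and most genes alike. Combo200 against IFN200 called 6 of 8 and Combo2000 against IFN2000 called 7 of 8, shares near the 69.9% and 72.3% of all genes called. In the second comparison Mxd4 differed 3.94-fold (log2 1.98 ± 0.08, adjusted p = 2.19e-14) and Mxd1 2.50-fold (1.32 ± 0.10). Between the IFNγ doses alone, IFN2000 against IFN200 called 5 of 8, beside 22.3% of genes. Mxd4 was lower by far the most, at -1.29 ± 0.09, and Mnt was at -0.21, while Mxd3 (0.29), Mlx (0.22) and Max (0.12) were higher. Without IFN2000 replicate 2 the comparison called 1 member, Mxd4.

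The interaction asks whether the log2 change with IFNγ differs when Oxali is present, as Combo minus Oxali against IFNγ minus Ctrl. At 200 pg it called none of the 8 members by edgeR or DESeq2, beside 0.698% of all genes, with Mxi1 and Mlx at an unadjusted p of 0.0357 and 0.0162. At 2000 pg it called Mxd4 alone, beside 2.72% of genes. The log2 change of Mxd4 with IFNγ at 2000 pg was -1.32 without Oxali and -0.26 with it, a difference of 1.06 ± 0.11 (adjusted p = 4.59e-06). Over 17 other settings it ran from 0.94 to 1.16 and was called in all 17.

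**Figure D3:**
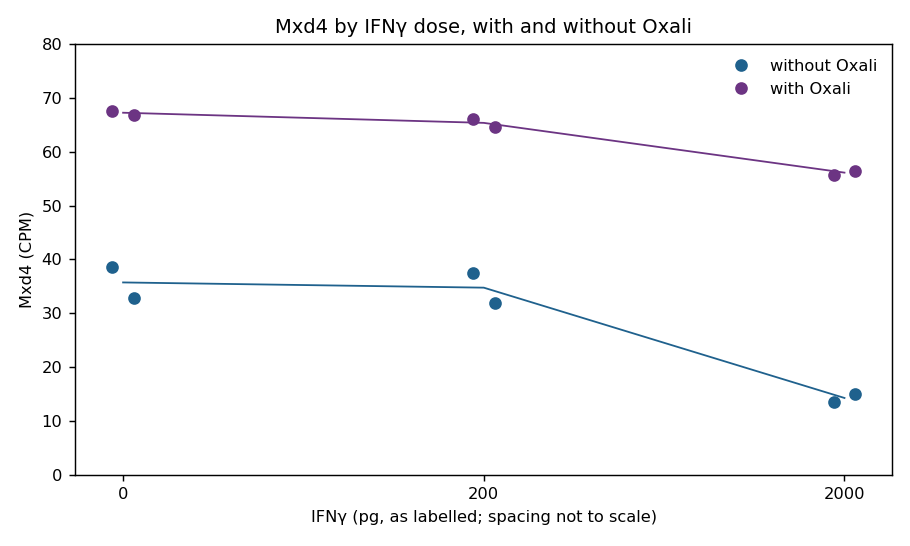
Mxd4 in CPM (vertical axis from 0) against the labelled IFNγ dose, evenly spaced, without Oxali and with it. Points are libraries and lines join group means. Without Oxali the level goes from 35.7 CPM in Ctrl to 14.3 at 2000 pg, and with Oxali from 67.2 to 56.1.

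To set the members beside each other, CPM was divided by kilobases of annotated exon (RPKM), which assumes that all exons of a gene are used. In Ctrl the order of mean levels was Myc at 47.6 ± 1.59 RPKM (SD, n = 2), Max at 27.6 ± 0.60, Mlx at 21.8 ± 0.93, Mnt at 12.6 ± 0.11, Mxd3 at 9.22 ± 1.02, Mxi1 at 5.85 ± 0.40, Mxd4 at 4.21 ± 0.47 and Mxd1 at 0.913 ± 0.044. Neighbours in that order were further apart than their SDs. In Oxali, Mxd4 (7.93 ± 0.06) stood above Mxi1 (5.07 ± 0.32), and in IFN2000 it was down to 1.68 ± 0.13. Mxd1 stayed the lowest expressed member in every group, at 2.02 ± 0.09 with Oxali.

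The summed level of the 5 antagonists was 32.6 and 32.9 RPKM in Ctrl, 39.02 and 38.5 in Oxali and 29.4 and 28.7 in IFN2000. Since Myc was also higher with Oxali, the ratio of antagonists to activators stayed near that of Ctrl there, whereas in IFN2000 it was lower. Antagonist RPKM per activator RPKM was 0.702 and 0.676 for Ctrl, 0.655 and 0.666 for IFN200, 0.577 and 0.574 for IFN2000, 0.706 and 0.723 for Oxali, 0.740 and 0.686 for Combo200, and 0.683 and 0.637 for Combo2000. IFN2000 was the lowest pair and did not overlap any other group. On the log2 scale the mean differed from Ctrl by 0.05 with Oxali, 0.05 with Combo200, -0.06 with Combo2000, -0.06 with IFN200 and -0.26 with IFN2000. No test was made of this ratio, for which 2 libraries against 2 allow no exact two-sided p under 0.333. The ratio depends on the length scale, since with CPM in its place the difference was 0.15 with Oxali and -0.36 with IFN2000. It also rests on reads assigned to mouse Myc. How many reads of the transgene are among them is not known, so the activator level may leave out part of the transgene RNA.

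The make-up of the antagonist pool changed as well. Mnt held 35.2% to 39.6% of the antagonist RPKM in every library. Mxd4 went from 11.8% and 13.9% in Ctrl to 20.4% in both Oxali libraries and to 5.41% and 6.17% in IFN2000. Mxd1 went from 2.68% and 2.90% in Ctrl to 5.06% and 5.34% in Oxali, and Mxi1 from 16.9% and 18.8% to 12.6% and 13.6%.

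**Figure D4:**
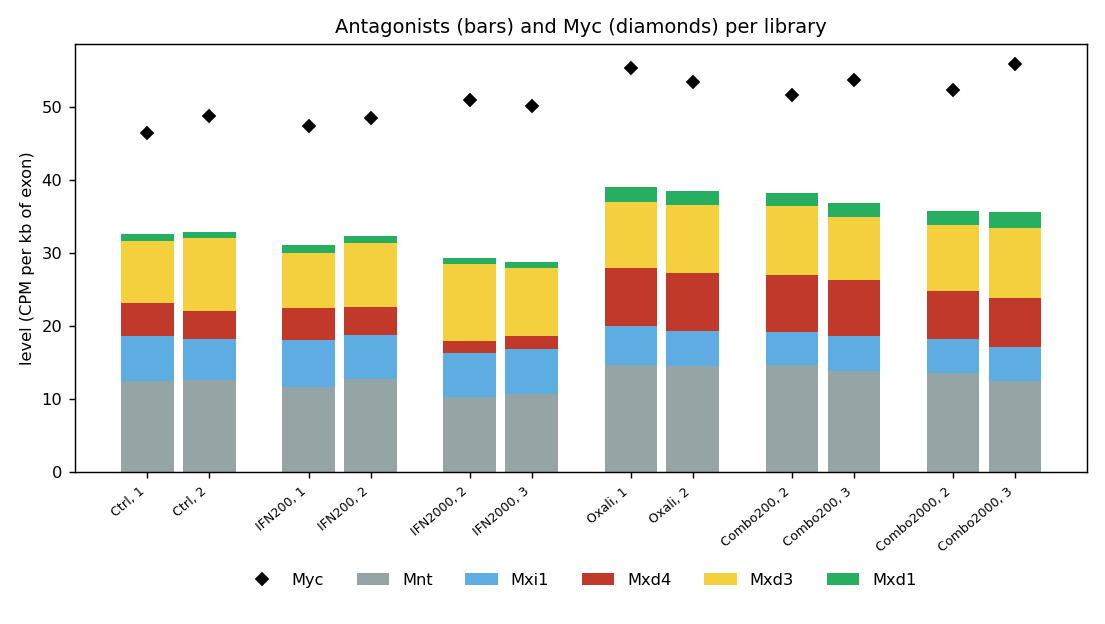
Stacked level of the 5 antagonists (bars) and level of Myc (diamonds) in CPM per kilobase of exon, for each library named by group and replicate. The antagonist sum lies between 28.7 and 39.02 and stays under the counted level of Myc in every library. That level may leave out part of the transgene RNA. The Mxd4 segment is widest with Oxali and narrowest in IFN2000.

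Genes around the network were read from lists of textbook partners and targets, and the largest of these lists was mostly lower with Oxali, in which Myc mRNA was not. Of 19 tested MYC-induced targets, mostly genes of ribosome production and metabolism, 17 were lower and 1 higher with Oxali, with a median log2 change of -0.60, where 32.8% of all genes were lower, 34.8% higher and their median was 0.02. Shmt2, of one-carbon metabolism, changed by -1.20 ± 0.04, Ldha, lactate dehydrogenase, by -0.98, and the nucleolar genes Fbl and Ncl by -0.84 and -0.81, while Nop56 was at 0.01 and not called. The gene called higher was Tert, the telomerase subunit (0.86 ± 0.29), at 0.779 and 1.32 CPM in Ctrl, and that call was lost without Ctrl replicate 1 or Oxali replicate 2. Both combinations had 17 targets lower, with medians of -0.58 and -0.61. In IFN2000, 10 of the 19 were higher and 1, Cad, lower, beside 8.39% and 8.47% of all genes, with a median of 0.13, and the count of higher targets was 6 without IFN2000 replicate 2 and 4 without Ctrl replicate 1. Ccnd2, the target that was not tested, had 116 counts (4.97 CPM) in IFN2000 replicate 2, the library with T cell reads. Its partner, IFN2000 replicate 3, had 0.

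Of 6 MYC-repressed targets tested, 4 were higher with Oxali (3 or 4 over the alternatives), where 34.8% of all genes were, the cell cycle inhibitors Cdkn1a (1.02 ± 0.06), Cdkn2b (1.03 ± 0.23) and Cdkn1b (0.20 ± 0.04) and the stress gene Gadd45a (0.39 ± 0.13), and Ndrg2 was lower (-0.36 ± 0.09). The median was 0.30. Cdkn1a and Gadd45a are also p53 targets. With IFN2000 Cdkn1a was higher (0.29) and Cdkn1b lower (-0.33).

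The cofactors of both arms were read beside the 32.8% of all genes called lower and 34.8% called higher with Oxali. Of 10 MYC cofactors, 8 were lower and none higher (median -0.38; 7 to 10 lower over the alternatives), led by Wdr5 (-0.95 ± 0.04), which tethers MYC to chromatin, and by Ruvbl2 (-0.94 ± 0.05) and Ruvbl1 (-0.82 ± 0.06), helicases of the TIP60 and INO80 complexes. Trrap, the scaffold that MYC binds, was at 0.15 ± 0.09 and not called. Of 12 SIN3 corepressor genes, which serve the MXD proteins, 7 were lower and 2 higher (median -0.17), with 7 to 10 lower and 0 to 3 higher over the alternatives. Hdac2 (-0.76 ± 0.04) and Rbbp7 (-0.63 ± 0.04) fell, Ing2 (0.23) and Sap30 (0.13) rose, and the scaffold Sin3a changed by -0.19 while Sin3b (0.06) was not called. Among 10 genes of MYC protein turnover 6 were lower (3 with DESeq2 or upper-quartile scaling, 8 with the length and GC correction), again beside 32.8% of all genes, among them the ubiquitin ligases Skp2 (-0.67), Huwe1 (-0.43) and Fbxw7 (-0.21), and 1 was higher, Aurka (0.52 ± 0.04), a kinase known to stabilize MYC proteins.

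The Mondo branch split in the same comparison. Mlxip, which encodes the Mondo protein MondoA, was at 127 and 120 CPM in Ctrl and 72.7 and 65.1 in Oxali, a log2 change of -0.84 ± 0.06 (adjusted p = 5.83e-10) that accompanied the fall of Mlx. An antisense gene covers 267 bases (3.21%) of its exons. Mlxipl had 1 count in a single library. Of the usual targets of the Mondo proteins only 2 were listed, and both were higher, where 34.8% of all genes were. Txnip, a brake on glucose uptake, went from 160 and 144 CPM to 226 and 224 (0.57 ± 0.05), and its relative Arrdc4 rose by 0.50 ± 0.12. Mga, a MAX partner of the variant Polycomb complex, changed by -0.32 ± 0.11, a call lost without Ctrl replicate 2 or Oxali replicate 1. With IFN2000, Txnip changed by -0.35 ± 0.05.

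**Figure D5:**
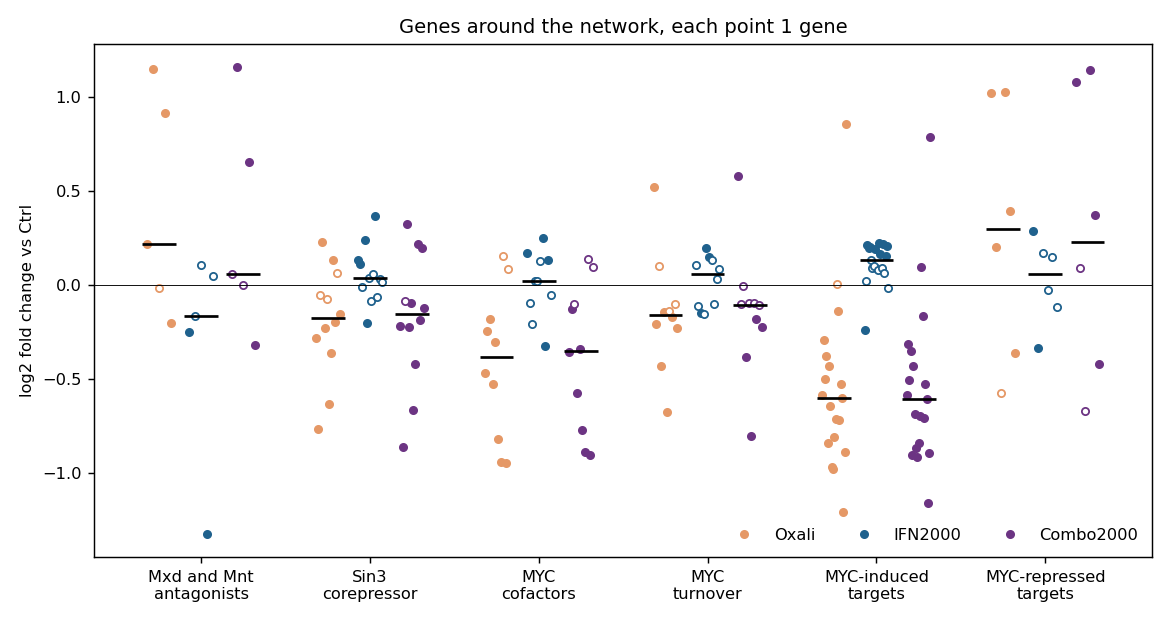
Log2 fold change against Ctrl (vertical axis) for each tested gene of 6 lists with Oxali, IFN2000 and Combo2000. Each point is 1 gene, filled where it passed the edgeR test, and black bars are list medians. MYC-induced targets lie mostly below 0 with Oxali and Combo2000, with medians of -0.60 and -0.61, and mostly above it with IFN2000, at 0.13.

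The genes most like 3 of the members over the 12 libraries were found by the Pearson correlation of log2 CPM among 10475 genes, as a description over libraries that share treatments. For Mxd4 they were Slc5a3, an inositol transporter gene (r = 0.994), Sesn3, a sestrin of the stress response (0.993), and A4galt, a glycosyltransferase gene (0.991). Slc5a3 rose by 0.63 with Oxali and fell by 0.67 with IFN2000 on the log2 scale, so its span was narrower than that of Mxd4. For Myc they were Morn2 (0.989), Lig1 (0.965) and Nmd3 (0.963), and for Max they were Elovl5 (0.957), Clpp (0.953) and Tfip11 (0.951).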

How the data were processed

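Poly(A) RNA of 12 Myc-CaP libraries was sequenced from a stranded kit. The deposited table holds raw counts, 1 row per gene symbol. Alignment, as the study's methods state it, was with STAR (2.7.3a in the submitters' processing notes, which also name RSEM 1.3.0 with no role given) to GRCm38 with GENCODE models, and featureCounts made the counts. The strand setting of the counting is not given in the sources used here. Every count column was used, 0 were left out, and each row named a gene.

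Counts were scaled by TMM, filtered with filterByExpr (minimum count 10, minimum total 15) and tested in R 4.3.3 by quasi-likelihood with edgeR 4.0.16. All 12 libraries entered 1 model with a mean per group, because 2 libraries per group leave few degrees of freedom on their own. P-values were adjusted by Benjamini-Hochberg over all 13177 genes within each of 13 contrasts, and a gene was called at an adjusted p under 0.05. SEs were obtained by dividing each log2 fold change by the root of its F statistic. Members, lists and tests were chosen with earlier results of these data known. All members were named in every contrast, list genes could be named with their values, and 3 genes most like Myc, Max and Mxd4 were taken by correlation among genes averaging 1 log2 CPM or more.

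CPM are counts scaled by TMM library size. Exon lengths and coordinates came from GENCODE release 21 on GRCm38, in which 96.8% of the symbols matched 1 gene. Library totals were 18749975 to 25931516 counts. The floor of 3 counts holds for counting error alone, as no molecular identifiers mark PCR copies. Alternatives were RLE and upper-quartile scaling, no filter, a mean of at least 50 counts, DESeq2 1.42.0, the replicate number as a block, only the groups compared, a loess correction for length and GC content, each library left out and, for the antagonist ratio, CPM in place of RPKM, Mnt left out, or Mycn and Mycl left out. A version of the correction that holds the median, and the same alternatives for the gene lists, were chosen after seeing the data. The test was tried on simulated data first. Some listed genes and a promoter motif are not reported here.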

Additional observations from a re-analysis of the deposited data

Results flagged for a closer look

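For 7 genes, the log2 change with IFNγ at 2000 pg differed with Oxali present by the interaction test (edgeR adjusted p under 0.05). Mxd4 had the widest difference, 1.06 ± 0.11 (adjusted p = 4.59e-06), from -1.32 without Oxali to -0.26 with it, and all 17 alternatives called it. Txnip, a Mondo target, differed by 0.41 ± 0.07 (adjusted p = 0.00253), and 16 of 17 alternatives called it.

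The other 5 were smaller and less stable. The cell cycle inhibitor Cdkn1b differed by 0.22 (adjusted p = 0.0410; called in 5 of 17 alternatives). The corepressor genes Hdac2 and Sap30 differed by -0.21 and -0.28 (adjusted p = 0.0446 and 0.0397; 6 and 7 of 17). The ubiquitin ligase gene Skp2 differed by -0.28 (adjusted p = 0.0383; 8 of 17) and Odc1, of polyamine synthesis, by -0.22 (adjusted p = 0.0475; 8 of 17). With 2 libraries per group no library was tested for standing apart from its group. The pairs differed in chi-square per degree of freedom over the tested genes, a measure of spread beyond counting error. It was 8.63 for Oxali, 4.88 for IFN2000, 3.37 for Combo2000, 2.44 for IFN200, 1.73 for Ctrl and 1.68 for Combo200. The fit pooled the spread over all groups.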

How the results depend on the processing

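Of 40 called changes of members over the 13 contrasts, 23 stayed called in the same direction under every alternative run, among them each change of Mxd4 and Mxd1 against Ctrl and each fall of Mlx with Oxali. The length and GC correction reversed 9 values of Myc and Mnt. For Mnt it gave -0.088 with Oxali, -0.11 with Combo200, -0.25 with Combo2000, -0.089 for Combo200 against IFN200 and -0.017 for Combo2000 against IFN2000. For Myc it gave -0.025 with Combo200, -0.0066 with Combo2000, -0.044 for Combo200 against IFN200 and -0.052 for Combo2000 against IFN2000. By construction that correction also moves the overall scale. Counts of members moved as follows. Combo2000 against Oxali went from 1 to 0 with DESeq2, 0 with the replicate block, 2 with the length and GC correction and 0 in each leave-one-out fit. IFN2000 against IFN200 went from 5 to 3 with DESeq2, 2 with the replicate block, 3 with the correction that holds the median and 1 to 5 without 1 library. IFN2000 against Ctrl, with 3, had 1 to 3 without 1 library, namely 1 without either Ctrl library or IFN2000 replicate 2. Combo2000 against Combo200 went from 0 to 1 with no filter, with only the groups compared and with the length and GC correction. The cause was not tested. For the antagonist ratio on the log2 scale, CPM in place of RPKM gave -0.030 with IFN200, -0.36 with IFN2000, 0.15 with Oxali, 0.14 with Combo200 and 0.0063 with Combo2000, and leaving out Mnt gave -0.22 with IFN2000.

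Whether replicate numbers pair the libraries could not be settled. Of 21 pairs of libraries with the same number, 2 had a correlation of deviations from the group means over 0.1 and 4 under -0.1. The range was -0.239 to 0.105. With 2 libraries per group the deviations mirror each other, so values repeat, and both over 0.1 are 1 value, for Ctrl with IFN200. Number 1 occurs only in Ctrl, IFN200 and Oxali, and number 3 only in IFN2000 and the combinations. With the replicate block, IFN2000 against Ctrl called 1071 genes, and 2221 without it. A library left out leaves its group with 1, assumed to vary like the others. Depth limits Mycn, Mycl and Mlxipl.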
